A study of Mus musculus with 69 samples.

Results

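The genes described here are 41 members of the TGF-beta, BMP and activin pathways, among 55401 genes in the tables of young mice and older ovary. They are 11 ligands, 2 latent TGF-beta binding proteins, 12 receptors and co-receptors, 5 antagonists or pseudoreceptors, 8 Smad proteins and 3 target genes. They were chosen by symbol from a list of the pathway, with earlier results of these data known. Their messenger RNA was measured by RNA sequencing of pituitary, ovary and hypothalamus of female C57BL/6J mice of a Zeb1 knock-in line. In Zeb1_200H mice 1 Zeb1 allele, and in Zeb1_200M mice both alleles, have point mutations in the predicted miR-200a and miR-200b sites of the Zeb1 3′ UTR in every cell of the animal, and WT mice have neither. ZEB1 is a zinc-finger transcription repressor, and miR-200a and miR-200b are microRNA families that lower Zeb1. Young mice were virgins of 8 to 12 weeks, older mice were 28 to 36 weeks old and came from a breeding trial, and all were taken at proestrus. The knock-in mice descended from 2 edited embryonic stem cell clones, and the labels do not say which clone a library goes back to. Each genotype had 4 libraries in each tissue and cohort, but only 3 for young WT pituitary and for 200M pituitary and hypothalamus of the older cohort. The replicate number of 1 young WT pituitary count column belongs to no sample label, and this library is called replicate u.

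Ligands of the TGF-beta superfamily bind a pair of type II and type I receptor kinases at the cell surface. TGF-beta and activin type I receptors phosphorylate SMAD2 and SMAD3, and BMP type I receptors phosphorylate SMAD1, SMAD5 and SMAD9, which enter the nucleus together with SMAD4, while SMAD6 and SMAD7 inhibit them. Id1, Id2 and Id3 are BMP-SMAD target genes that encode inhibitors of basic helix-loop-helix transcription factors. In pituitary, activin raises and inhibin opposes the production of follicle-stimulating hormone, and in ovary BMP and activin ligands act on granulosa and theca cells. ZEB1 is known both as a gene induced by TGF-beta and as a partner of SMAD proteins.

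The sequences that connect these genes with the knock-in are the microRNA seeds and their matches. Seeds (bases 2 to 8) are in capitals in the first 2 lines, and in the others the capitals mark the bases complementary to the seed followed by A, the 8mer. MicroRNAs are from RefSeq (GRCm38.p6), and 3′ UTRs from GENCODE M21 (GRCm38), on the coding strand.

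miR-200b-3p, chr4:156055685-156055706, minus strand: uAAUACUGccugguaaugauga

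miR-200a-3p, chr4:156054911-156054932, minus strand: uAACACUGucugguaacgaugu

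Tgfbr3 3′ UTR, miR-200a 8mer, chr5:107108530-107108559, minus strand: gctcagtgactcttCAGTGTTAaaactgaa

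Acvr2a 3′ UTR, miR-200b 8mer, chr2:48901327-48901356, plus strand: taccaacaaatagcCAGTATTAtgttatat

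Nog 3′ UTR, miR-200b 8mer, chr11:89301068-89301097, minus strand: acttattaaaaggtCAGTATTAtacgtcaa

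The 8mer CAGTATTA occurred in the 3′ UTR of 3.16% and CAGTGTTA in that of 3.85% of 21037 genes with an annotated 3′ UTR. The shorter 7mer CAGTATT, of miR-200b, was found in 11 of the 41 members against 13.27% of all genes, and CAGTGTT, of miR-200a, in 10 members against 17.15%, each on the coding strand only. The 17 members with either 7mer included Acvr1c, Acvr2a, Bmp3, Bmp7, Bmpr1b, Bmpr2, Grem1, Id2, Nog, Smad2, Smad5, Smad7, Tgfb2, Tgfbr1, Tgfbr2 and Tgfbr3. A match is a stretch of letters and not a shown site.

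ZEB1 binds the E-boxes CAGGTG and CAGGTA, which were searched on both strands from 250 bases before to 50 bases after each annotated start (RefSeq, GRCm38.p6). The 29 members with an entry had 36 such promoter windows, and 8 of the windows (22.22%), each of another member, held either motif, against 29.52% of 32851 windows of all genes. The matches of 4 of these members whose values are described below are shown as 30-base windows on the gene's strand, with the motif, or its reverse complement, in capitals. All 4 lie inside the gene as GENCODE annotates it, and the windows at the outermost starts of Acvr1c and Tgfbr1 held no match. Bmp4, Fstl3 and Ltbp2 also held a match.

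Bmp6 promoter, chr13:38345653-38345682, plus strand: ctgcctaggacaCACCTGgctcactcagcc

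Bmpr1b promoter, chr3:141982403-141982432, minus strand: cctacttctctcCACCTGcttgaggaaagc

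Acvr1c promoter, chr2:58325025-58325054, minus strand: catgtcccacctTACCTGgttggggacata

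Tgfbr1 promoter, chr4:47386038-47386067, plus strand: aggtaccacttcCAGGTAcacacccaggat

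Total counts per library, in units of 1000000, were 7.56 to 13.34 in young and 4.53 to 12.96 in older pituitary, 6.34 to 12.9 and 7.99 to 14.66 in young and older ovary, and 3.32 to 5.14 and 10.19 to 13.92 in young and older hypothalamus, so the young hypothalamus was the shallowest. Zeb1, which checks the labels, was at 95.9 to 98.8 CPM (counts in 1000000 of the library's total, scaled by TMM) in young WT, 127 to 135 in 200H and 133 to 142 in 200M pituitary, and at 55.5 to 62.8, 70.3 to 76.3 and 80.8 to 93.2 in the older cohort. Both mutant groups lay above WT in both cohorts and were called, and Zeb1 was not called in ovary or hypothalamus. In hypothalamus all 200M libraries lay below all WT libraries in both cohorts. The log2 fold change of Zeb1 there was -0.17 in young and -0.26 in older mice (edgeR adjusted p = 0.871 and 0.161). The labelled tissues had their defining markers: the lactotrope list was at 134547 CPM or more in every WT pituitary, the granulosa list at 2558 CPM or more in every WT ovary and the neuron list at 2756 CPM or more in every WT hypothalamus. Older 200M ovary replicate 3 stood apart, with the lowest summed granulosa (1549 CPM), theca (1949 CPM) and luteal (5084 CPM) markers of the 12 older ovaries and the highest sum (486 CPM) of Foxj1, Ccdc153, Rax and Tmem212, a list led by ciliated-cell genes, so older ovary results are also given without it. RNA of young mice was sequenced with strand after removal of ribosomal RNA, and that of older mice without strand after poly(A) selection, so cohort, age, breeding history and library chemistry cannot be told apart. Reads over exon bases that 2 genes share are ambiguous and by default left out of both counts, and in the unstranded libraries this includes genes on the other strand, which among the members concerns mostly Fstl3 (47.32% of exon bases shared with Prss57) and Bmp5 (46.66% shared with Gm26903).

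Levels in WT tissue set what could be measured, and are given per length as RPKM (reads per kilobase of exon in counts scaled like CPM, mean ± SD). Among receptors, Bmpr2, the type II BMP receptor, was at 152 ± 10.5 RPKM in young WT ovary, 61.8 ± 3.75 in hypothalamus and 19.8 ± 1.19 in pituitary. Bmpr1b, a type I BMP receptor, was at 27.6 ± 2.91 RPKM in young WT ovary and only 0.361 ± 0.0989 in pituitary. In young WT pituitary the highest members were Bmpr1a, a type I BMP receptor (32.8 ± 1.94 RPKM), the shared mediator Smad4 (29.1 ± 1.27) and then Smad3 (20.4 ± 0.895), Tgfbr3 (19.8 ± 2.02) and Bmpr2. The order of Smad3, Tgfbr3 and Bmpr2 cannot be read, because their SDs overlap. The BMP antagonists had opposite orders in these tissues: noggin (Nog) was at 7.86 ± 1.55 RPKM in young WT pituitary and 1.24 ± 0.555 in ovary, while gremlin (Grem1) was low in pituitary and at 11.3 ± 2.72 in ovary. Ltbp1, which binds latent TGF-beta in the matrix, was at 22.8 ± 1.05 RPKM in young WT ovary against 1.66 ± 0.0344 in pituitary and 1.15 ± 0.280 in hypothalamus. Id1 was at 1.96 ± 0.639 RPKM in young and 15.2 ± 3.65 in older WT pituitary, whereas Bmpr2 went the other way, to 2.78 ± 0.357 in the older cohort, with library chemistry and age differing together. The lowest members in young WT pituitary were Grem1 (0.111 ± 0.0909 RPKM), Ltbp2 (0.136 ± 0.0988), Gdf10 (0.159 ± 0.0553) and Bmp5 (0.185 ± 0.0932).

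**Figure D1:**
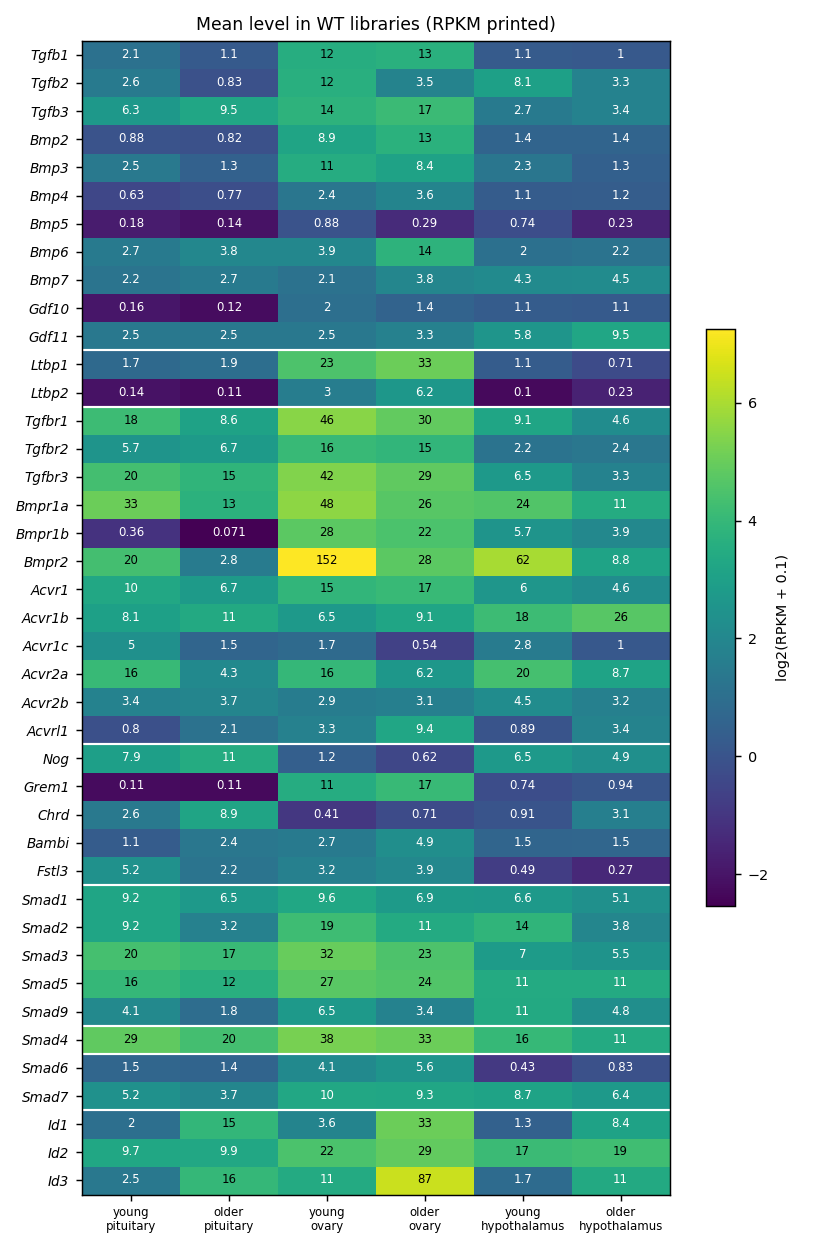
Mean RPKM of each of the 41 members (rows, ordered by role and separated by white lines) in the WT libraries of 6 tissue and cohort groups (columns). The colour is log2(RPKM + 0.1) and the mean RPKM is printed in each cell. Bmpr2 in young ovary is the highest value, and Grem1 and Bmpr1b are far lower in pituitary than in ovary.

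The first comparison asks how the pathway's genes responded in pituitary, where Zeb1 was raised. In young pituitary, 16 of 41 members differed between 200M and WT (edgeR quasi-likelihood test, adjusted p under 0.05), 10 raised and 6 lowered, where 21.5% of all 18199 genes tested were called, 11.5% raised and 10% lowered. In older pituitary 15 of the 37 members tested differed, 9 raised and 6 lowered, where 21.4% of 14711 genes were called, 11.7% raised and 9.77% lowered. Bmp5, Bmpr1b, Gdf10 and Ltbp2 were too low to be tested there. The share of members called was 39.02% and 40.54%, above the background in both cohorts, and no test of that excess was made. The list of members was drawn up with earlier results of these data known. The median log2 fold change of the members was -0.06 in young and 0.01 in older pituitary, against 0.00 and -0.01 over all genes, so the members did not shift as a group. Called in both cohorts and in the same direction were 10 members: Bmp3, Gdf11, Tgfbr2, Tgfbr3, Bmpr2 and Smad9 were raised and Tgfb3, Smad3, Id1 and Id2 lowered. In the older cohort the count was 9 without 200M replicate 1 and 8 without 200M replicate 3. Since whole pituitaries were sequenced, fewer cells of a type and less RNA per cell cannot be told apart in any value below.

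**Figure D2:**
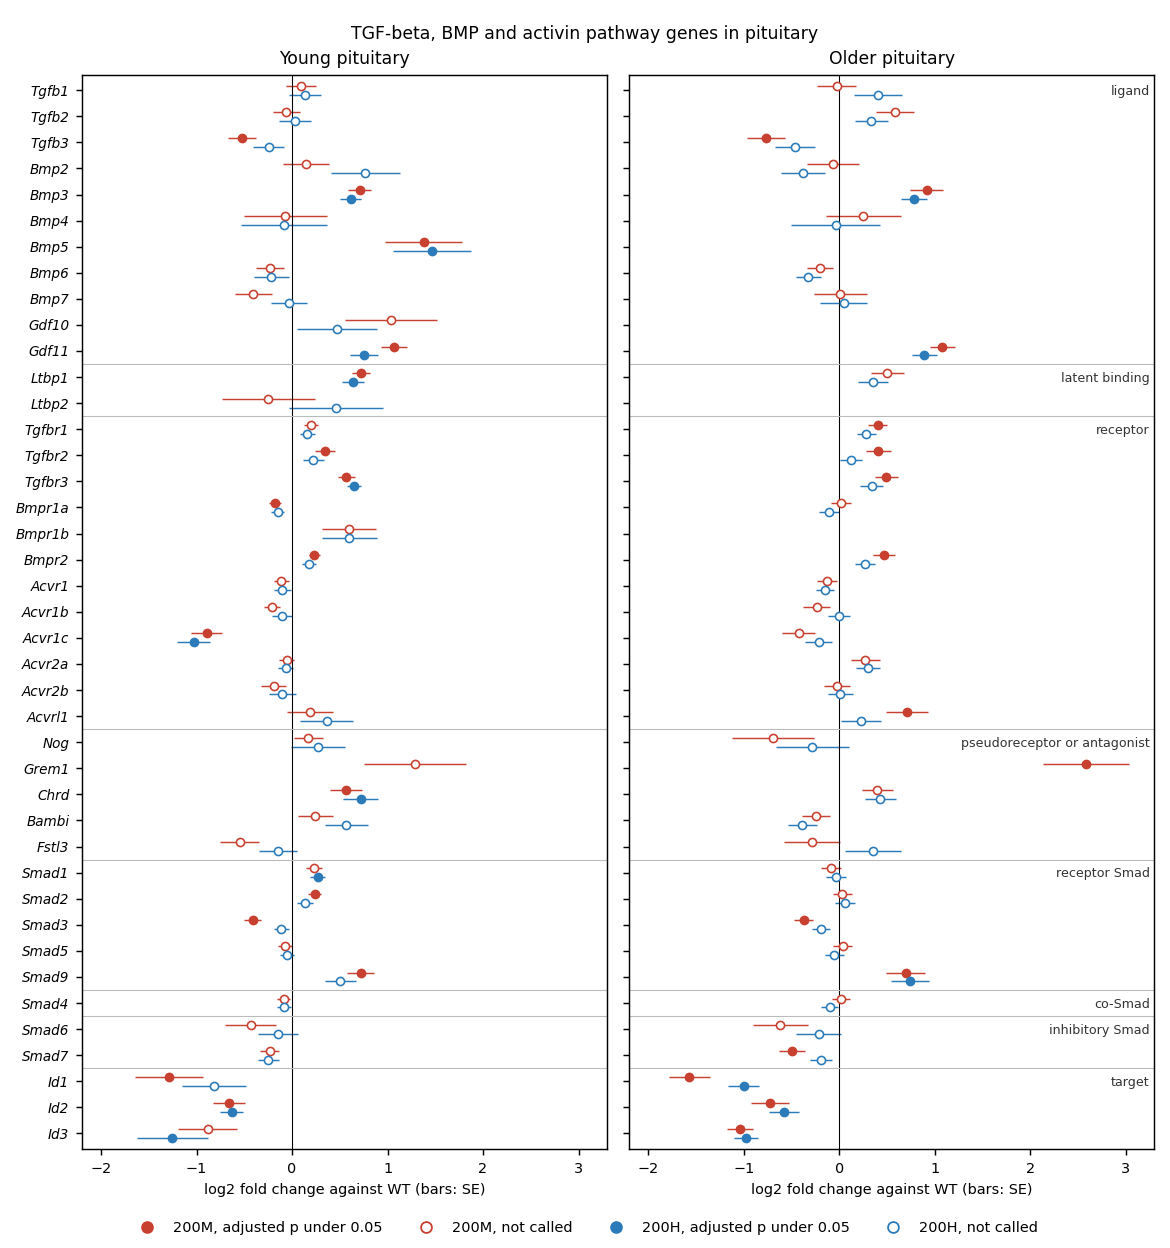
Log2 fold change against WT in pituitary of every member tested, in the young (left) and older (right) cohort, for 200M (red) and 200H (blue), with bars of 1 SE and filled circles where the adjusted p was under 0.05. Gdf11 and Bmp3 lie to the right and Id1, Id2 and Id3 to the left of 0 in both cohorts and both genotypes. Members without a symbol were too low to be tested.

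Among the ligands, Gdf11 and Bmp3 were raised and Tgfb3 was lowered in both cohorts. Gdf11 (ENSMUSG00000025352, chr10:128882295-128891718, minus strand), an activin-like ligand that signals through SMAD2 and SMAD3, had 10.5, 11.8 and 8.07 CPM in the young WT, 16.5, 15.5, 18.03 and 17.5 in the 200H and 20.4, 19.5, 22.2 and 21.9 in the 200M libraries. In older pituitary Gdf11 was at 9.20, 9.85, 11.3 and 10.2 CPM in WT, 17.2, 19.6, 16.5 and 21.1 in 200H and 19.4, 22.4 and 21.8 in 200M. No mutant library reached down to the WT libraries in either cohort. Changes from here on are log2 fold changes of 200M against WT ± SE unless stated otherwise. The 200M level of Gdf11 was 2.10-fold that of WT in young (log2 fold change 1.07 ± 0.13, adjusted p = 4.61e-05) and 2.11-fold in older pituitary (1.08 ± 0.13, adjusted p = 0.000147).

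Bmp3 (ENSMUSG00000029335, chr5:98854415-98884396, plus strand), an atypical BMP that opposes BMP signals, was at 16.0, 19.9 and 20.3 CPM in young WT, 29.5, 28.4, 28.6 and 27.4 in 200H and 28.8, 26.6, 34.1 and 31.5 in 200M pituitary. Older libraries had 10.9, 8.73, 9.32 and 9.40 CPM of Bmp3 in WT, 15.1, 15.6, 15.3 and 19.5 in 200H and 22.8, 14.6 and 17.2 in 200M. All mutant libraries were again above all WT libraries. For Bmp3 the change was 0.71 ± 0.12 (adjusted p = 0.000558) in young and 0.91 ± 0.17 (adjusted p = 0.00302) in older pituitary. Neither Gdf11 nor Bmp3 lost its call under any alternative tried, including leaving out each library in turn.

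Tgfb3 (ENSMUSG00000021253, chr12:86056745-86079041, minus strand), 1 of the 3 TGF-beta ligands, had 20.1, 17.5 and 26.5 CPM in young WT and 12.1, 15.8, 15.7 and 15.2 in young 200M pituitary, and 34.1, 34.5, 39.7 and 20.6 and 21.7, 18.5 and 16.2 in the older cohort. The young groups did not overlap, whereas 1 older WT library, replicate 4, lay below the highest 200M library. On the log2 scale Tgfb3 differed by -0.53 ± 0.15 (adjusted p = 0.0182) in young and -0.77 ± 0.20 (adjusted p = 0.0177) in older pituitary. The adjusted p passed 0.05 in young pituitary without 200M replicate 1 (0.0519) or WT replicate u (0.133), and in older pituitary without 200M replicate 2 (0.0719) or 200M replicate 3 (0.0819), adjusted p in parentheses.

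Bmp5 was called in the young cohort only, where its log2 fold change was 1.378 ± 0.40 (adjusted p = 0.0242) at a low level, 3 to 10 counts per library in WT and 20 to 25 in 200M. The other ligands were not called in either cohort. Tgfb2 had a log2 fold change of 0.58 in older pituitary with groups that did not overlap (adjusted p = 0.0515) but -0.06 in young. For Tgfb1, Bmp2, Bmp4, Bmp6 and Bmp7 it lay between -0.41 (Bmp7) and 0.14 (Bmp2) in young and between -0.20 (Bmp6) and 0.25 (Bmp4) in older pituitary. Gdf10 was at 1.034 in young pituitary (SE 0.48, adjusted p = 0.149) with 5 to 10 counts per WT library.

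Of the latent binding proteins, Ltbp1 (ENSMUSG00000001870, chr17:75005568-75392512, plus strand) was at 18.1, 17.6 and 17.4 CPM in young WT, 23.8, 28.1, 26.6 and 31.5 in 200H and 27.6, 28.9, 28.6 and 30.9 in 200M pituitary. Every mutant library was above every WT library. In older pituitary it was at 15.3, 17.8, 20.3 and 26.5 CPM in WT and 32.8, 26.3 and 26.2 in 200M, where the highest WT library, replicate 4, lay among the 200M libraries. The fitted change of Ltbp1 was 0.72 ± 0.09 (adjusted p = 6.71e-05) in young and 0.50 ± 0.17 (adjusted p = 0.0566) in older pituitary, so that only the young difference was called. Ltbp2, a related protein that does not bind latent TGF-beta, was at -0.25 in young pituitary (adjusted p = 0.770).

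Of the TGF-beta receptors, Tgfbr2 and Tgfbr3 were raised in 200M pituitary in both cohorts and Tgfbr1 in the older one. Tgfbr3 (ENSMUSG00000029287, chr5:107106570-107289629, minus strand), the co-receptor betaglycan that presents TGF-beta2 and also binds inhibin, was at 144, 126 and 118 CPM in young WT, 197, 199, 211 and 196 in 200H and 166, 209, 202 and 179 in 200M pituitary. In older pituitary Tgfbr3 was at 78.7, 103, 83.9 and 114 CPM in WT, 105, 126, 121 and 130.1 in 200H and 136, 129.9 and 137 in 200M. The 200M libraries lay above the WT libraries in both cohorts, and the 200H libraries did so in young pituitary. Tgfbr3 changed by 0.57 ± 0.09 (adjusted p = 0.000343) in young and 0.49 ± 0.12 (adjusted p = 0.0111) in older pituitary, and no alternative ended either call.

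Tgfbr2 (ENSMUSG00000032440, chr9:116084293-116175360, minus strand), the type II receptor, had 47.9, 53.5 and 38.85 CPM in young WT and 53.0, 59.1, 57.8 and 65.1 in young 200M pituitary, and 45.7, 48.4, 61.4 and 65.2 and 79.0, 64.5 and 76.6 in the older cohort. The highest WT library reached into the 200M range in both cohorts. The difference was called, at 0.34 ± 0.10 (adjusted p = 0.0302) in young and 0.41 ± 0.13 (adjusted p = 0.0415) in older pituitary. Its call depended on which libraries were kept, as the young call was lost without 200M replicate 2 (0.0639), 200M replicate 3 (0.0600), 200M replicate 4 (0.0637), WT replicate 1 (0.0676) or WT replicate u (0.157), and the older call without 200M replicate 1 (0.149), 200M replicate 3 (0.137), WT replicate 1 (0.0858) or WT replicate 2 (0.110), adjusted p in parentheses. It was also lost in older pituitary once a trend with transcript length was removed (adjusted p = 0.0687).

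Tgfbr1 (ENSMUSG00000007613, chr4:47353222-47414931, plus strand), the type I receptor, was at 59.1, 48.1, 54.7 and 61.9 CPM in older WT and 74.7, 71.5 and 75.4 in older 200M pituitary, without overlap. In young pituitary it was at 116, 126 and 104 CPM in WT and 123, 138, 128 and 134 in 200M, where the groups overlapped. This gave a change of 0.40 ± 0.10 (adjusted p = 0.0133) in older and 0.19 ± 0.07 (adjusted p = 0.0808) in young pituitary. Its older call was lost without 200M replicate 1 (0.0522) or 200M replicate 3 (0.0582), adjusted p in parentheses.

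Receptors for BMPs and activins did not move one way. Bmpr2 (ENSMUSG00000067336, chr1:59763400-59879014, plus strand) was at 346, 382 and 342 CPM in young WT and 420.0, 417, 420.2 and 401 in young 200M pituitary, and at 50.0, 41.1, 52.9 and 56.0 and 70.0, 74.5 and 61.3 in the older cohort. The groups did not overlap in either cohort, and the change was small, at 0.23 ± 0.06 (adjusted p = 0.00886) in young and 0.46 ± 0.12 (adjusted p = 0.0138) in older pituitary. The older call was lost without 200M replicate 1 (0.0531) or 200M replicate 2 (0.0773), adjusted p in parentheses, and the young one when a trend with transcript length was removed (adjusted p = 0.0710). Acvr1c (ENSMUSG00000026834, chr2:58267453-58357895, minus strand), the type I receptor ALK7 that serves activin and Nodal-type ligands, was lowered: young pituitary had 36.9, 62.7 and 40.4 CPM in WT, 21.5, 20.2, 21.2 and 27.7 in 200H and 24.0, 30.4, 22.4 and 22.1 in 200M. No mutant library was as high as the lowest WT library. Older pituitary had 13.2, 12.4, 13.8 and 15.8 CPM of Acvr1c in WT and 13.0, 9.36 and 8.72 in 200M, and there the groups overlapped. The fitted values for Acvr1c were -0.89 ± 0.16 (adjusted p = 0.00109) in young and -0.42 ± 0.17 (adjusted p = 0.101) in older pituitary.

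Of the remaining receptors, Bmpr1a was lowered in young pituitary, at -0.18 ± 0.06 (adjusted p = 0.0432), and was at 0.02 in the older cohort. Acvrl1, the type I receptor ALK1 best known from endothelium, was raised in older pituitary, at 0.71 ± 0.22 (adjusted p = 0.0379), and was at 0.19 in the young one. The type I activin and BMP receptors Acvr1b and Acvr1, and the type II activin receptors Acvr2a and Acvr2b, were not called. Their log2 fold changes lay between -0.21 (Acvr1b) and -0.06 (Acvr2a) in young and between -0.24 (Acvr1b) and 0.27 (Acvr2a) in older pituitary. Bmpr1b was at 0.60 in young pituitary (SE 0.28, adjusted p = 0.153).

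The 5 antagonists gave 1 call in each cohort. Grem1 (ENSMUSG00000074934, chr2:113746164-113758646, minus strand), a secreted BMP antagonist, was at 0.139, 0.343, 0.608 and 0.656 CPM in older WT, 1.04, 1.07, 1.19 and 1.17 in 200H and 4.04, 2.05 and 2.08 in 200M pituitary. The 3 genotypes did not overlap, and the WT values rest on 1 to 6 counts per library against 10 to 19 in 200M. The change of 2.59 ± 0.45 (adjusted p = 0.00179), the largest of any member in pituitary, is therefore imprecise, although no alternative ended the call. In young pituitary Grem1 was at 0.410, 0.112 and 0.861 CPM in WT and 1.39, 0.993, 1.40 and 0.638 in 200M, with overlap and a change of 1.29 ± 0.53 (adjusted p = 0.105). Chrd (chordin), which binds BMPs outside the cell, was raised in young pituitary at 0.56 ± 0.17 (adjusted p = 0.0280), and was at 0.40 (adjusted p = 0.0977) in older pituitary. Nog, the pseudoreceptor gene Bambi, and Fstl3, which binds activins, were not called. Fstl3 was at -0.55 (adjusted p = 0.0647) in young and -0.29 in older pituitary, Nog at 0.17 and -0.69, and Bambi at 0.24 and -0.25.

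Within the Smads, the TGF-beta and activin mediator Smad3 was lowered and the BMP mediator Smad9 raised. Smad3 (ENSMUSG00000032402, chr9:63646767-63757994, minus strand) was at 109, 112 and 118 CPM in young WT, 94.0, 109.8, 109 and 103 in 200H and 79.8, 99.4, 76.2 and 80.3 in 200M pituitary. In older pituitary Smad3 was at 89.2, 87.5, 111 and 88.3 CPM in WT, 80.2, 81.7, 81.7 and 85.0 in 200H and 71.7, 71.8 and 73.9 in 200M. The 200M libraries were below the WT libraries in both cohorts, with 200H between them in the older one. Smad3 changed by -0.41 ± 0.09 (adjusted p = 0.00349) in young and -0.37 ± 0.10 (adjusted p = 0.0178) in older pituitary. The older call was lost without 200M replicate 1 (0.0653), 200M replicate 2 (0.0764) or 200M replicate 3 (0.0603), adjusted p in parentheses.

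Smad9 (ENSMUSG00000027796, chr3:54755582-54801257, plus strand) was at 24.3, 20.8 and 21.0 CPM in young WT, 22.2, 28.9, 39.5 and 33.9 in 200H and 29.7, 42.8, 40.4 and 30.0 in 200M pituitary. The older libraries had 7.52, 8.82, 9.53 and 13.7 CPM of Smad9 in WT, 13.8, 21.5, 14.7 and 16.0 in 200H and 15.3, 14.1 and 19.3 in 200M. The 200M and WT groups did not overlap in either cohort. For Smad9 this was a change of 0.72 ± 0.14 (adjusted p = 0.00164) in young and 0.70 ± 0.20 (adjusted p = 0.0288) in older pituitary. No alternative ended the young call, and the older one was lost without 200M replicate 1 (0.0651), 200M replicate 3 (0.135), WT replicate 1 (0.0626), WT replicate 2 (0.0786) or WT replicate 3 (0.0591), adjusted p in parentheses.

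Smad2 (ENSMUSG00000024563), which acts with Smad3 and has 3 7mers of the miR-200 seeds in its 3′ UTR, was at 75.3, 85.4 and 81.7 CPM in young WT and 98.2, 93.6, 92.6 and 92.6 in young 200M pituitary, without overlap. In older pituitary it was at 26.5, 28.7, 29.6 and 29.2 CPM and 29.8, 30.8 and 26.6 CPM, and the groups overlapped. The fitted change was 0.24 ± 0.07 (adjusted p = 0.0232) in young and 0.03 ± 0.10 (adjusted p = 0.858) in older pituitary. The young call was lost without 200M replicate 1 (0.0571), 200M replicate 2 (0.0514), WT replicate 1 (0.112) or WT replicate u (0.0597), adjusted p in parentheses, and when a trend with transcript length was removed (adjusted p = 0.0628). The BMP mediators Smad1 and Smad5 were not called, at log2 fold changes of 0.23 and -0.08 in young and -0.08 and 0.03 in older pituitary. Smad4 was at -0.09 and 0.02. Of the inhibitory Smads, Smad7 was lowered in older pituitary at -0.50 ± 0.14 (adjusted p = 0.0212) and was at -0.23 (adjusted p = 0.111) in the young cohort, and Smad6 was at -0.43 and -0.62 without a call.

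All 3 Id target genes were lowered in older 200M pituitary, and Id1 and Id2 also in young. Id1 (ENSMUSG00000042745, chr2:152736251-152737410, plus strand) was at 15.1, 17.98, 23.5 and 14.1 CPM in older WT, 8.82, 8.87, 8.74 and 8.38 in 200H and 6.60, 6.16 and 4.78 in 200M pituitary, 3 ranges that did not touch. In young pituitary Id1 was much lower, at 3.08, 2.13 and 1.61 CPM in WT, 1.382, 1.53, 1.102 and 1.06 in 200H and 1.08, 1.16, 0.735 and 0.638 in 200M, which is 15 to 30 counts per WT library. Again no mutant library reached the WT range. Id1 changed by -1.57 ± 0.21 (adjusted p = 0.000320) in older and -1.29 ± 0.36 (adjusted p = 0.0187) in young pituitary. The young call was lost without 200M replicate 3 (0.0572) or WT replicate 1 (0.135), adjusted p in parentheses, and with DESeq2 (adjusted p = 0.0564).

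Id2 (ENSMUSG00000020644, chr12:25093799-25097140, minus strand) was at 24.4, 26.3 and 20.02 CPM in young WT, 14.7, 14.4, 16.9 and 14.3 in 200H and 17.6, 9.76, 15.7 and 15.9 in 200M pituitary. In older pituitary Id2 was at 26.1, 20.7, 31.4 and 18.1 CPM in WT, 17.1, 15.3, 15.1 and 16.0 in 200H and 17.4, 14.0 and 11.6 in 200M. In both cohorts the highest mutant library stayed below the lowest WT library. Id2 changed by -0.66 ± 0.17 (adjusted p = 0.0104) in young and -0.73 ± 0.20 (adjusted p = 0.0224) in older pituitary, and the older call was lost without 200M replicate 2 (0.0877), 200M replicate 3 (0.102) or WT replicate 1 (0.0512), adjusted p in parentheses. Id3 (ENSMUSG00000007872, chr4:136143497-136145755, plus strand) had 23.4, 27.9, 33.0 and 28.6 CPM in older WT, 15.1, 15.0, 14.1 and 12.8 in 200H and 13.8, 14.8 and 12.2 in 200M pituitary. In young pituitary its level was 6.87, 3.48 and 3.23 CPM in WT, 1.21, 2.81, 2.30 and 1.17 in 200H and 3.16, 2.48, 2.35 and 1.53 in 200M. Mutant and WT groups did not overlap in either cohort. For Id3 the fit gave -1.04 ± 0.14 (adjusted p = 0.000299) in older and -0.88 ± 0.31 (adjusted p = 0.0539) in young pituitary, where it missed the threshold.

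**Figure D3:**
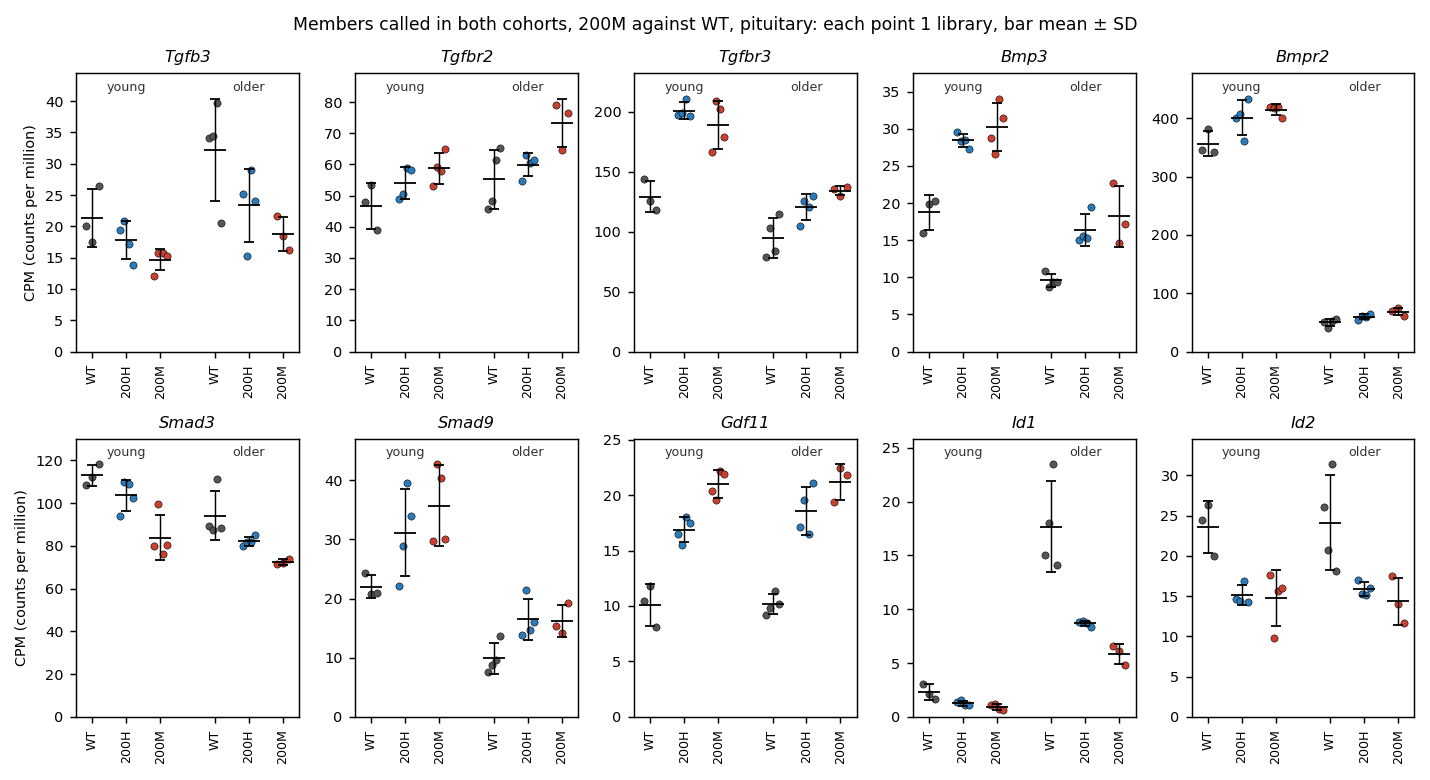
CPM of the 10 members called in both cohorts for 200M against WT in pituitary, with 1 point per library and a bar for mean ± SD in WT, 200H and 200M of the young (left) and older (right) cohort. In Gdf11, Bmp3, Id1 and Id2 the points of both mutant groups are separate from the WT points in both cohorts, while Tgfbr2 and older Tgfb3 overlap.

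The 200H comparison addresses the heterozygous state. In young pituitary 10 of the 40 members tested were called, 7 raised and 3 lowered, where 12.3% of 18051 genes were called, 6.56% raised and 5.72% lowered (Grem1 was not tested). Raised were Gdf11 (log2 fold change 0.75 ± 0.15, adjusted p = 0.00482), Bmp3 (0.62), Bmp5 (1.47), Ltbp1 (0.64), Tgfbr3 (0.65), Chrd (0.72) and Smad1 (0.27). Lowered were Acvr1c (-1.032), Id2 (-0.63) and Id3 (-1.25). Without 200H replicate 4 the count was 6. In older pituitary 6 of 36 members were called, where 12.2% of 14922 genes were called, 7.09% raised and 5.14% lowered. Gdf11 (log2 fold change 0.89 ± 0.13, adjusted p = 0.000823), Bmp3 (0.78) and Smad9 (0.74) were raised, and Id1 (-1.002), Id2 (-0.58) and Id3 (-0.98) lowered. Bmp5, Bmpr1b, Gdf10, Grem1 and Ltbp2 were not tested, and without WT replicate 4 the count rose to 11. The members called in both cohorts for 200H were Gdf11, Bmp3, Id2 and Id3. These values share their WT libraries with the 200M comparison.

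Compared directly, 200M and 200H pituitary gave no called member. In young pituitary 0 of 41 members passed (0.0383% of 18271 genes did), 4 had an unadjusted p under 0.05 (1081 of all genes did), and DESeq2 called 0. In older pituitary 0 of 39 passed (0.121% of 14862 genes), 6 had an unadjusted p under 0.05 (1575 of all genes did), and DESeq2 again called 0. The log2 difference of 200M from 200H was 0.32 (SE 0.09) in young and 0.18 (SE 0.13) in older pituitary for Gdf11, and -0.58 (SE 0.18, adjusted p = 0.235) in older pituitary for Id1. Grem1 was at 1.23 (SE 0.34, adjusted p = 0.181) in older pituitary. A p that misses the threshold does not show that the mutant genotypes had the same level.

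Read against the sequences shown above, the members with a 7mer of either seed had 6 raised and 2 lowered of 17 in young 200M pituitary, and the members without had 4 raised and 4 lowered of 24. In older pituitary the numbers were 7 raised and 2 lowered of 16 with, and 2 raised and 4 lowered of 21 without. The median log2 fold change was 0.19 with and -0.10 without a 7mer in young and 0.34 and -0.08 in older pituitary. For the miR-200b 7mer alone, young 200M pituitary had 3 raised and 2 lowered of 11 with, and 7 and 4 of 30 without. For the miR-200a 7mer alone it had 4 raised and 1 lowered of 10 with, and 6 and 5 of 31 without. Tgfbr3, with a miR-200a 8mer, was raised in both cohorts, and Acvr2a and Nog, with a miR-200b 8mer, were called in neither. Acvr1c and Id2 had a 7mer and were lowered. Young 200H pituitary had 2 raised and 2 lowered of 16 with either 7mer, and 5 raised and 1 lowered of 24 without. Older 200H pituitary had 2 raised and 1 lowered of 15 with, and 1 raised and 2 lowered of 21 without. The 200H median was 0.15 with and -0.08 without in young and 0.12 and -0.10 in older pituitary. Of the 8 members with a ZEB1 E-box in the promoter window, 1 was raised and 1 lowered (Acvr1c) in young 200M pituitary. The 33 other members had 9 raised and 5 lowered there. In older 200M pituitary 2 of the 6 tested were raised, Tgfbr1 among them, against 7 raised and 6 lowered of the 31 others. In older 200M ovary 2 of these 8 were lowered, Bmp6 among them, against 1 lowered of the 33 others. In young 200M ovary 1 was raised (Bmpr1b), against 0 of the 33 others. The others include members that had no promoter entry to search. These counts were not matched for 3′ UTR length and carry no test.

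Several lists of cell type markers differed between 200M and WT pituitary as well. Macrophage markers summed to 65.44 to 78.35 CPM in young 200M against 45.09 to 53.52 in WT libraries (4 of 7 tested raised), and to 129.4 to 180.9 against 87.77 to 113.2 in the older cohort (3 of 8 raised). Markers of pituicytes and the posterior lobe summed to 245 to 288.1 against 198.1 to 204.9 CPM and 145.2 to 182 against 101.6 to 126.3 (3 of 6 raised in each). The summed lactotrope list, which is nearly all Prl, fell from between 134547 and 159278 CPM in WT to between 39659 and 61982 in 200M in young (2 of 3 lowered), and from between 169075 and 211716 to between 53385 and 72849 in older pituitary (1 of 3 lowered). Mural markers summed to 367.6 to 409.2 CPM in young 200M against 269.8 to 287 in WT (3 of 7 raised) but overlapped in the older cohort, as did endothelial sums (303.4 to 380.8 against 264.3 to 368.3 CPM, 1 of 10 raised). Fibroblast sums were lower in 200M, at 313.1 to 443.8 against 567.6 to 681.4 CPM in young and 461.2 to 581.5 against 681.9 to 1011 in older pituitary, although 1 and 2 of 7 markers were raised and 1 lowered. Neuron markers summed to 962.3 to 1085 against 871.8 to 928.2 CPM (2 raised and 1 lowered of 4) and 834.3 to 897.1 against 566.4 to 651.7 (4 of 5 raised), and meningeal markers to 34.91 to 42.49 against 17.94 to 19.32 and 44.48 to 55.66 against 22.99 to 24.49 (2 of 2 and 2 of 3 raised). In these lists the only markers at or under 3 counts in every WT library were Dpt of the fibroblast list in young, and Prlhr of the lactotrope and Gad1 of the neuron list in older pituitary. Their part in the results above was not tested.

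In ovary 4 members were called for 200M against WT in either cohort, Bmpr1b raised and Ltbp1, Bmp6 and Smad9 lowered. In young ovary 1 of 41 members was called for 200M against WT, where 2.58% of 19250 genes were called. Bmpr1b (ENSMUSG00000052430, chr3:141837136-142169425, minus strand), the type I BMP receptor of granulosa cells, was at 164, 165, 187 and 144 CPM in WT, 289, 186, 206 and 175 in 200H and 242, 202, 250.2 and 257 in 200M. Each 200M library was above each WT library, and 200H lay across both. Its change was 0.53 ± 0.09 (adjusted p = 0.0104), and leaving out any 1 library kept the call. In older ovary Bmpr1b was at 178, 142, 102 and 105 CPM in WT and 97.9, 138, 93.6 and 128 in 200M, which overlapped (-0.21 ± 0.21, adjusted p = 0.633). The count of called members rose to 2 without WT replicate 1 and to 3 without 200M replicate 2.

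Older ovary had 3 called members of 41, all lowered in 200M, where 2.71% of 17792 genes were called and 1.19% lowered. The largest change was in Ltbp1, at 330.3, 417, 283 and 367 CPM in WT, 725, 719, 227 and 219 in 200H and 98.6, 64.7, 80.5 and 91.4 in 200M. All 200M libraries were below all others, and the 200H libraries split into a high and a lower pair. Its level in 200M was 4.17-fold lower than in WT (log2 fold change -2.06 ± 0.17, adjusted p = 0.00152) and no alternative ended the call. In young ovary Ltbp1 was at 261, 238, 238 and 240.0 CPM in WT, 126, 213, 139 and 182 in 200H and 122, 233, 97.9 and 116 in 200M. Here, too, no mutant library reached the WT libraries, but the change of -0.77 ± 0.20 (adjusted p = 0.0535) missed the threshold.

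Bmp6 (ENSMUSG00000039004, chr13:38345107-38500302, plus strand), a BMP ligand, was at 49.8, 47.4, 58.9 and 57.0 CPM in older WT, 48.7, 56.3, 39.9 and 41.4 in 200H and 27.4, 38.6, 25.4 and 28.2 in 200M ovary. The 200M libraries lay below both other groups. In young ovary it was at 12.5, 18.8, 13.7 and 15.4 CPM in WT and 16.7, 17.4, 19.3 and 15.5 in 200M, with overlap. For Bmp6 the fit gave -0.83 ± 0.15 (adjusted p = 0.0272) in older and 0.20 ± 0.14 (adjusted p = 0.550) in young ovary. Smad9, raised in pituitary, was at 11.9, 22.5, 21.9 and 16.2 CPM in older WT, 12.0, 15.2, 11.2 and 16.0 in 200H and 6.96, 6.70, 6.02 and 9.66 in 200M ovary. Again 200M lay below both other groups. In young ovary Smad9 was at 40.2, 34.9, 39.3 and 25.0 CPM in WT and 26.6, 27.1, 31.9 and 24.5 in 200M, which overlapped. For Smad9 it gave -1.30 ± 0.25 (adjusted p = 0.0324) in older and -0.34 ± 0.14 (adjusted p = 0.230) in young ovary.

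Both of these calls were lost in many fits without 1 library, while the direction stayed. Over all alternatives the log2 fold change was -0.99 to -0.78 for Bmp6 and -1.48 to -1.19 for Smad9. Bmp6 was lost in older ovary without 200M replicate 1 (0.0902), 200M replicate 4 (0.0732), WT replicate 2 (0.0766), WT replicate 3 (0.0914) or WT replicate 4 (0.0820), and Smad9 without 200M replicate 1 (0.101), 200M replicate 2 (0.0594), 200M replicate 3 (0.0539), 200M replicate 4 (0.0562), WT replicate 2 (0.116), WT replicate 3 (0.110) or WT replicate 4 (0.0770), adjusted p in parentheses. Without the 200M replicate 3 that stood apart, the log2 fold changes were -2.06 for Ltbp1, -0.78 for Bmp6 and -1.23 for Smad9, and 2 members were called. The count fell to 1, Ltbp1, without 200M replicates 1 or 4 or without WT replicates 2, 3 or 4, taken singly. In the same library Grem1 was at 0.963 CPM against 55.1, 78.6 and 69.6 in the other 200M ovaries.

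**Figure D4:**
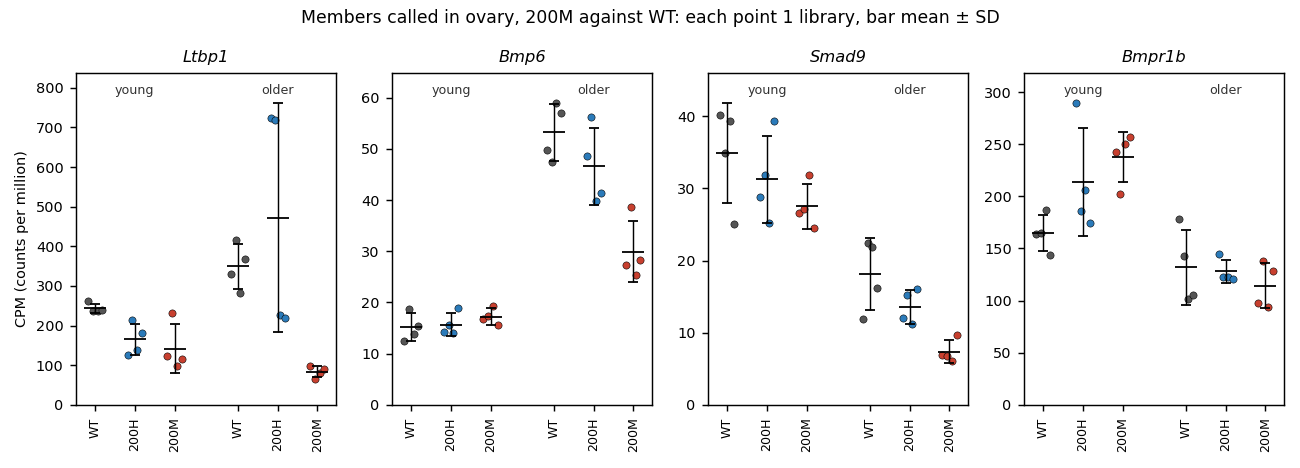
CPM of the 4 members called in ovary for 200M against WT, with 1 point per library and a bar for mean ± SD in WT, 200H and 200M of the young (left) and older (right) cohort. In the older cohort the 200M points of Ltbp1, Bmp6 and Smad9 lie below all other points, and the 200H points of Ltbp1 form 2 separate pairs.

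Luteal markers were lower in the same ovaries. Their sum was 5084 to 12768 CPM in older 200M against 13502 to 31498 in WT and 14774 to 26548 in 200H (4 of 8 lowered against WT), and in young ovary 4930 to 8071 against 6768 to 8931 (3 of 8 lowered). The 200H libraries that were high in Ltbp1, replicates 1 and 2, had luteal sums of 20776 and 26548 CPM, and those that were low, replicates 3 and 4, had 20444 and 14774 CPM. The ciliated-cell list was at 1.207 and 2.584 CPM in the first pair and 90.43 and 251.3 CPM in the second. In older WT it was at 137.4 CPM in replicate 1 and at 1.674, 1.01 and 0.1613 CPM in the others, and Ltbp1 of replicate 1 lay between theirs. Macrophage markers summed to 417.2 to 820.4 CPM in older 200M ovary against 212.8 to 393.9 in WT and 262.5 to 343.9 in 200H, with 0 of 8 called against WT, and in young ovary to 172.3 to 183 in 200M against 188.5 to 247.2 in WT (1 of 8 lowered). The part of these markers in the ovary results was not tested.

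The other comparisons in ovary gave little. For 200H against WT, 0 of 41 members passed in young ovary (0.0051% of 19621 genes), with 6 at an unadjusted p under 0.05 (1384 of all genes). DESeq2 called 76 genes there, 1 of them a member, Ltbp1 (log2 fold change -0.59, adjusted p = 0.0132, against 0.348 in edgeR). In older ovary 0 of 41 passed (0% of 17605 genes), with 2 at an unadjusted p under 0.05 (1160 of all genes). DESeq2 called 21 genes there, 1 of them a member, Id1 (0.51, adjusted p = 0.000309). For 200M against 200H, 0 of 41 passed in young ovary (0% of 19259 genes), with 0 at an unadjusted p under 0.05 (648 of all genes) and 0 by DESeq2. In older ovary 1 of 41 was called (1.61% of 17855 genes), Ltbp1, at -2.51 ± 0.44 (adjusted p = 0.0291) on the log2 scale, and it was lost without 200H replicates 1 or 2 or 200M replicates 1 or 4, taken singly. DESeq2 called 875 genes there, 4 of them members, in addition Bmp7 (-1.25), Smad9 (-0.90) and Bmp6 (-0.65).

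Hypothalamus had no called member. For 200M against WT, 0 of 36 members passed in young hypothalamus (0.02% of 14988 genes), with 5 at an unadjusted p under 0.05 (847 of all genes) and 0 by DESeq2. Bmp4, Fstl3, Id1, Ltbp2 and Smad6 were too low to be tested in any comparison of young hypothalamus. In older hypothalamus also 0 of 40 passed (0.00622% of 16067 genes, Fstl3 not tested), with 7 at an unadjusted p under 0.05 (2904 of all genes). DESeq2 called 632 genes there, 2 of them members, Smad9 (log2 fold change -0.43, adjusted p = 0.0372) and Acvr2b (-1.005, adjusted p = 0.00342). Smad9 was at 25.4, 27.8, 27.0 and 23.5 CPM in WT and 21.3, 16.97 and 19.8 in 200M, and Acvr2b at 8.84, 9.76, 17.1 and 14.0 and 6.54, 5.51 and 6.71. Neither gene overlapped between the groups, and edgeR gave adjusted p = 0.120 and 0.112. Without WT replicate 1 edgeR called 2 members.

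For 200H against WT, 0 of 36 members passed in young (0.0202% of 14877 genes) and 0 of 40 in older hypothalamus (0% of 15910 genes), with 6 and 1 at an unadjusted p under 0.05 (585 and 445 of all genes) and 0 by DESeq2 in each. For 200M against 200H, 0 of 36 passed in young (0% of 14812 genes), with 2 at an unadjusted p under 0.05 (682 of all genes) and 0 by DESeq2. In older hypothalamus 0 of 41 passed (0% of 16156 genes), with 9 at an unadjusted p under 0.05 (3144 of all genes). DESeq2 called 637 genes there, 2 of them members, Smad9 (-0.44) and Bmpr2 (-0.46).

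Whether the 200M effect itself differed between tissues was tested as an interaction. In the young cohort 10 of 41 members differed between pituitary and ovary (10.1% of 22130 genes), and 7 of 40 between pituitary and hypothalamus (10.5% of 17789 genes). In the older cohort 6 of 41 differed between pituitary and ovary (5.77% of 18736 genes) and 13 of 41 between pituitary and hypothalamus (17.5% of 17180 genes). Gdf11 and Smad9 were called in all 4. For Gdf11 the pituitary effect exceeded that of ovary by 1.01 ± 0.23 (adjusted p = 0.00624) on the log2 scale in young and 1.43 ± 0.39 (adjusted p = 0.0478) in older mice. For Smad9 the excess over ovary was 1.07 ± 0.22 (adjusted p = 0.00261) in young and 2.03 ± 0.35 (adjusted p = 0.00459) in older mice. Ltbp1, raised in young pituitary and lowered in older ovary, differed between these tissues by 1.49 ± 0.27 (adjusted p = 0.00107) in young and 2.58 ± 0.26 (adjusted p = 0.000121) in older mice. Id1 differed from ovary by -1.44 ± 0.41 (adjusted p = 0.0269) in young and -1.74 ± 0.30 (adjusted p = 0.00417) in older mice. The count against ovary fell to 6 in the young cohort without pituitary 200M replicate 3 or ovary 200M replicate 4, and to 3 in the older cohort without any 1 of the 3 pituitary 200M libraries, ovary 200M replicate 1 or ovary WT replicates 2 or 4.

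**Figure D5:**
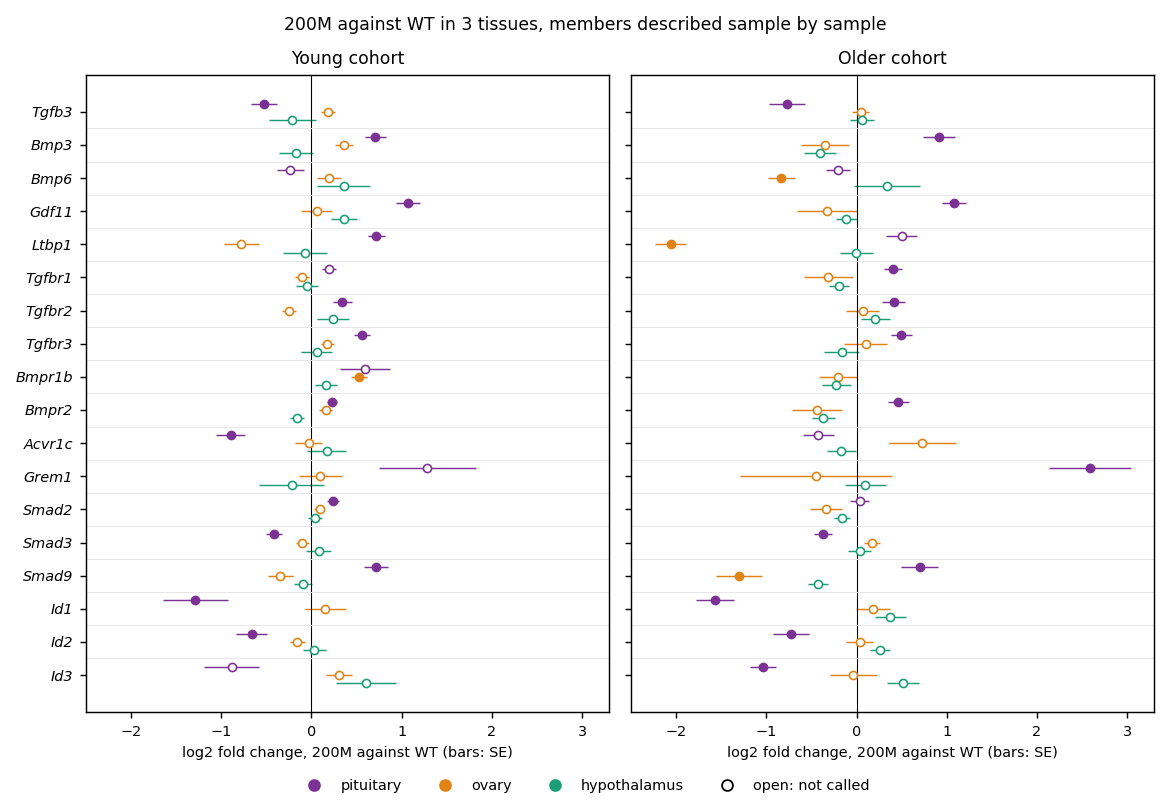
Log2 fold change of 200M against WT for the members described library by library, in pituitary (purple), ovary (orange) and hypothalamus (green) of the young (left) and older (right) cohort, with bars of 1 SE and filled symbols where the adjusted p was under 0.05. Most filled symbols are those of pituitary, and Ltbp1 and Smad9 lie on opposite sides of 0 in older pituitary and older ovary.

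Between cohorts the 200M effect differed in 0 of 41 members in pituitary (0.0273% of 18344 genes), with 4 at an unadjusted p under 0.05 (1257 of all genes) and 0 by DESeq2. It differed in 1 of 41 in ovary (0.197% of 21786 genes) and in 0 of 39 in hypothalamus (0.154% of 16831 genes), the latter with 5 at an unadjusted p under 0.05 (1740 of all genes) and 0 by DESeq2. The ovary call was Bmp6, whose older minus young difference was -1.05 ± 0.20 (adjusted p = 0.0443) on the log2 scale. The call was kept without older 200M replicate 2, older WT replicate 1 or young WT replicate 2, and lost without any other single library and with DESeq2 size factors in edgeR, which left 0 called. A call present in only 1 cohort, as for Ltbp1 and Acvr1c in young or Grem1 and Tgfbr1 in older pituitary, was therefore not shown to be particular to it. For Ltbp1 the older minus young difference in pituitary was -0.27 ± 0.20 (adjusted p = 0.827), and for Acvr1c 0.42 ± 0.27 (adjusted p = 0.802).

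A further list of 80 pathway genes outside the 41 members was followed beside them. In 200M pituitary 16 of 52 tested were called in young (10 raised, 6 lowered) and 14 of 47 in older mice (9 raised, 5 lowered), 30.77% and 29.79% against the backgrounds of 21.5% and 21.4%. Antagonists were called in 4 of 9 cases in each cohort, all raised. Among them were decorin (Dcn), a matrix proteoglycan that binds TGF-beta, at 62.3, 62.6 and 54.7 CPM in young WT and 83.5, 81.3, 87.7 and 117 in 200M (0.64 ± 0.11, adjusted p = 0.00106), and the BMP antagonist Chrdl1, at 11.7, 12.9 and 16.4 and 26.4, 26.2, 26.4 and 26.3 (0.96 ± 0.12, adjusted p = 3.67e-05). Neither overlapped between the groups, and in older pituitary their log2 fold changes were 0.91 ± 0.14 (adjusted p = 0.000814) and 0.76 ± 0.17 (adjusted p = 0.00777). Bmp1, a protease that cleaves chordin, rose from 25.2, 18.9 and 18.8 CPM to 44.2, 36.5, 38.6 and 43.0 in young pituitary (0.96 ± 0.12, adjusted p = 3.42e-05), with 0.75 ± 0.13 (adjusted p = 0.00135) in older pituitary. Inha, the inhibin alpha subunit, fell from 33.2, 32.1 and 36.5 to 23.2, 19.7, 19.98 and 26.0 CPM (-0.61 ± 0.11, adjusted p = 0.00104), with -0.69 ± 0.13 (adjusted p = 0.00279) in older pituitary. Dcn is also in the fibroblast and Inha in the granulosa marker list.

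Tgfbr3l, a pituitary co-receptor for inhibin B, was the most clearly lowered of these genes, at 160.2, 129.9 and 139 CPM in young WT, 73.1, 69.1, 88.7 and 86.4 in 200H and 45.5, 58.0, 47.0 and 52.5 in 200M, so that the genotypes did not overlap. Tgfbr3l changed by -1.48 ± 0.09 (adjusted p = 6.69e-08) in young and -0.73 ± 0.15 (adjusted p = 0.00493) in older pituitary, and 52.22% of its exon bases are shared with Gm49320 on the same strand, which makes its count uncertain. Tgfbi, a TGF-beta-induced matrix protein, was raised at 0.70 ± 0.14 (adjusted p = 0.00270) in young and 0.51 ± 0.13 (adjusted p = 0.0140) in older pituitary. Gdf1 was raised in young pituitary at 1.47 ± 0.23 (adjusted p = 0.000363), but all of its exon bases (100%) are shared with Cers1. In ovary the list gave 1 call in each cohort, Skil, a negative regulator of SMAD signalling, lowered at -0.52 ± 0.09 (adjusted p = 0.0117) in young and -1.08 ± 0.20 (adjusted p = 0.0310) in older 200M ovary, where it was at 94.8, 171, 140.1 and 174 CPM in WT and 77.1, 61.9, 55.9 and 79.8 in 200M without overlap. In hypothalamus 0 of 49 and 0 of 60 were called in young and older mice by edgeR.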

How the data were processed

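RNA sequencing counts of 69 libraries in 18 groups, from 18 deposited tables, were used. According to the labels and the study's methods, the authors aligned reads with STAR 2.7.1a to mm10. The deposited values are raw read counts per gene: older pituitary and hypothalamus were counted with htseq-count 0.9.1 without strand on Ensembl 87, older ovary with featureCounts without strand, and all young tissues with featureCounts on the reverse strand, the last 2 on GENCODE vM25 basic. With htseq-count in union mode, and by default with featureCounts, reads over exon bases shared by 2 genes are left out, which without strand includes genes on opposite strands, and reads of multi-copy sequence can be lost. Young RNA was ribosomal-RNA-depleted, older RNA poly(A)-selected, so levels were tested only within a tissue and cohort, and between cohorts only as effects. The authors' normalized values (138 columns, DESeq2) were not used, and 3 raw count columns were left out because their names match no sample. 66 libraries stood in 2 tables each, with 0 genes differing. Within groups no pair of libraries agreed within counting noise (lowest chi-square per degree of freedom 1.87 over 99 pairs).

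Gene IDs were mapped to symbols with the 1 deposited table that pairs them. Genotypes were compared pairwise within tissue and cohort with the quasi-likelihood test of edgeR 4.0.16 (R 4.3.3), TMM scaling, filterByExpr with its default settings and Benjamini-Hochberg adjustment over all genes tested. Calls are at an adjusted p under 0.05, two-sided. Differences between effects were interaction terms in 1 fit over the 4 groups. Printed CPM were scaled with TMM across the 3 genotypes of each tissue and cohort, and RPKM used the union exon length in GENCODE M21, known for 99.07% of IDs. The script was tested on simulated counts. Intervals given as SE are of the fitted log2 fold change. The libraries are labelled as separate samples of a group. Nothing in the labels assigns them to the edited clones, so the p-values measure the spread between these samples.

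Alternatives were DESeq2 1.42.0, its size factors in edgeR, no filter on low counts, the replicate number as a block, removal of a trend of the fold changes with transcript length, and leaving out each library in turn. The members, the 80 other pathway genes, the marker lists and the rule for named members (called for 200M against WT in both cohorts of a tissue in the same direction, plus up to 3 other called members with the smallest p in each tissue and cohort) were chosen with earlier results of these data known. Called members outside that rule are given with their values because each count is accounted for by name. Motif searches used the longest annotated 3′ UTR of each gene and RefSeq promoters (GRCm38.p6). Some sequences and the values of 1 further pathway gene are not reported here.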

Additional observations from a re-analysis of the deposited data

Results flagged for a closer look

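In 6 of 64 groups of 4 libraries checked over the named members, 1 library lay far from the others, which chance alone gives in about 1 of 20 groups. These were Tgfb3 in young 200M pituitary replicate 1 (12.1 CPM), Bmp3 in older 200H pituitary replicate 4 (19.53 CPM), Bmpr2 in young 200M pituitary replicate 4 (400.8 CPM), Smad3 in older WT pituitary replicate 3 (111.3 CPM), Id2 in young 200H pituitary replicate 3 (16.93 CPM) and Acvr1c in young 200H pituitary replicate 4 (27.66 CPM). No 2 of them were the same library.

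The effect of 200M against WT differed between tissues or cohorts in 37 tests over 20 members (edgeR interaction, adjusted p under 0.05). Of all genes, 10.1% were called between pituitary and ovary and 10.5% between pituitary and hypothalamus in young mice. In older mice these shares were 5.77% and 17.5%. Between cohorts 0.0273% of genes were called in pituitary, 0.197% in ovary and 0.154% in hypothalamus. The values that follow are differences of log2 fold changes. In the young cohort the pituitary effect was above that of ovary for Ltbp1 (1.494), Smad9 (1.068), Gdf11 (1.013), Tgfbr2 (0.5939) and Tgfbr3 (0.3968). It was below that of ovary for Id1 (-1.438), Id3 (-1.185), Acvr1c (-0.864), Tgfb3 (-0.7044) and Smad7 (-0.4566). Against young hypothalamus it was higher for Bmp3 (0.8829), Smad9 (0.8099), Gdf11 (0.707) and Bmpr2 (0.3917), and lower for Id3 (-1.49), Acvr1c (-1.059) and Id2 (-0.6948).

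In the older cohort the pituitary effect exceeded that of ovary for Ltbp1 (2.584), Smad9 (2.033), Gdf11 (1.425) and Bmp3 (1.287), and was lower for Id1 (-1.741) and Smad3 (-0.5218). Against older hypothalamus it was higher for Grem1 (2.508), Bmpr1b (1.792), Bmp3 (1.32), Gdf11 (1.191), Smad9 (1.122), Acvr2b (0.9757), Tgfb2 (0.8399), Bmpr2 (0.8352) and Tgfbr1 (0.5983), and lower for Id1 (-1.944), Id3 (-1.548), Id2 (-0.9835) and Tgfb3 (-0.8323). Bmp6 in ovary had a lower effect in the older than in the young cohort (-1.052). Acvr2b and Tgfb2 differed here without a call in older pituitary itself. Bmpr1b was too low there to be tested for 200M against WT, so its difference rests on few pituitary counts.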

How the results depend on the processing

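The replicate numbers were not found to pair the libraries, since in no tissue and cohort did every pair of equal numbers correlate above 0.1. With the number as a block, the 200M counts were 7 in young pituitary (against 16), 17 in older pituitary (15) and 1 in older ovary (3), the count for 200M against 200H in older ovary was 0 (1), and library u had no partner and was dropped. Of the named members, the block ended the calls of Tgfb3, Tgfbr2, Bmpr2, Smad2, Smad3 and Id1 in young pituitary and of Bmp6 and Smad9 in older ovary, at adjusted p from 0.0552 (Smad3) to 0.405 (Tgfbr2). A block was not run for differences between tissues or cohorts. DESeq2 called 2 members in older hypothalamus 200M (632 of all genes) and 1 in 200H of each ovary cohort (76 of all genes in young and 21 in older). For 200M against 200H it called 4 in older ovary (875 of all genes) and 2 in older hypothalamus (637). For the ovary effect between cohorts it called 2 (355 of all genes), where its size factors in edgeR gave 0. Without a filter on low counts the counts were 3 in young ovary 200M, 4 in older hypothalamus 200M, 10 in older pituitary 200H, 1 in young ovary 200H, 3 for 200M against 200H in older hypothalamus, 1 for the pituitary effect between cohorts and 2 for that of ovary. The cause of these moves was not tested.

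Leaving out each library gave 8 to 17 called members in older pituitary 200M, 1 to 3 in young and 1 to 4 in older ovary 200M, 0 to 2 in older hypothalamus 200M, 6 to 11 in young and 4 to 11 in older pituitary 200H, 0 to 1 for 200M against 200H in older ovary, 6 to 11 and 3 to 7 for pituitary against ovary in the young and older cohort, and 0 to 1 for the ovary effect between cohorts. The other counts, young pituitary 200M among them (11 to 18), stayed within 1.5 times of their value. Of 364 values of single named members under the alternatives, 306 kept their call, 58 lost it and 0 changed direction. Low counts limit members such as Grem1, Bmp5, Gdf10 and Id1 in young pituitary and Grem1 in older pituitary, and 5 members were too low to be tested in young hypothalamus.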
